A study of Homo sapiens with 17 samples.

Results

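MDA-MB-231 cells given Maraviroc at its IC20 were set against every control array of the same line, 7 of the 17 arrays of the series. The members were chosen by their titles: 2 arrays of Maraviroc IC20, and 5 control arrays made of 2 ethanol, 2 DMSO and 1 untreated array. The line comes from a human triple-negative breast cancer and has a mesenchymal character. Maraviroc is a chemokine receptor antagonist, and ethanol was its solvent; DMSO was the solvent of DZH_2, a compound known here by its code name. IC20 is an inhibitory concentration, and its molar value is not stated in the labels. All cells were seeded for 24 h, and the treated and solvent groups were then exposed for 48 h. The untreated array is described by that word alone. The labels do not say whether the 2 arrays of a group were separate cultures, and the p-values therefore rest on a spread between arrays that may be technical alone. In bulk RNA, fewer cells of a kind and less RNA per cell cannot be told apart.

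The measurements were log2 signals of 17687 genes. Across genes, the 2 Maraviroc IC20 arrays correlated at 0.991, the ethanol arrays at 0.987 and the DMSO arrays at 0.991. Each Maraviroc IC20 array correlated with the controls at 0.984 to 0.992, and the controls among themselves at 0.981 to 0.994, so the treated arrays did not stand apart as a whole. All 12 measured markers of MDA-MB-231, such as VIM and AXL, lay in all 7 arrays above 6.05, the 75th percentile of probe sets that serve as negative controls. Their mean level was 12.98 and 13.09 in the Maraviroc IC20 arrays and 12.99 to 13.15 in the controls. Of 12 epithelial markers that the line should lack, 6 lay below that percentile in all 7 arrays and 4 above it. Of 11 fibroblast markers 8 lay below it in all 7 arrays and 3 above it. Among 10 leukocyte and endothelial markers these counts were 6 and 3, and among 10 basal mammary epithelial markers 6 and 4.

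Cholesterol synthesis is the largest group among the higher genes that follow. The pathway joins acetyl groups into mevalonate, builds farnesyl units and squalene from it, closes the ring to lanosterol and trims that to cholesterol. The transcription factor SREBF2 (SREBP-2) drives these genes when sterols in the endoplasmic reticulum are low, while INSIG1 holds it back. Promoters of this pathway are known for a sterol response element beside boxes bound by the factor NF-Y. The cystatins, which appear among the lower genes, are inhibitors of cysteine proteases, most of them secreted.

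To show what lies before these genes, the 250 bases upstream of a start site are printed for 2 enzymes that rose (HMGCS1, CYP51A1), an enzyme with many boxes (MSMO1) and the regulator SREBF2. They come from RefSeq on GRCh38.p14 and run 5′ to 3′. HMGCS1 is at chr5:43313413-43313662 (minus strand), CYP51A1 at chr7:92134478-92134727 (minus strand), MSMO1 at chr4:165327419-165327668 (plus strand) and SREBF2 at chr22:41832855-41833104 (plus strand). HMGCS1 has 2 windows in that table, and the one holding more boxes is shown. Capitals mark CCAAT, the NF-Y box, on either strand (read as ATTGG where it lies on the other strand).
HMGCS1: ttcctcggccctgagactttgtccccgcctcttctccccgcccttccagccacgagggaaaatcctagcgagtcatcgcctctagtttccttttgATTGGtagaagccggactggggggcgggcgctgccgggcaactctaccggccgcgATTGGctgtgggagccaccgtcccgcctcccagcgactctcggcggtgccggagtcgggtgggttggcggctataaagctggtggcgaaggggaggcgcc
CYP51A1: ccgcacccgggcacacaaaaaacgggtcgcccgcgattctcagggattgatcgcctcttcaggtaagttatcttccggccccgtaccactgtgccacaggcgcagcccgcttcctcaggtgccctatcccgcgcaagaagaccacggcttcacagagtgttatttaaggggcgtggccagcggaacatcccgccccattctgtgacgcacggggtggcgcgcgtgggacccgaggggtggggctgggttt
MSMO1: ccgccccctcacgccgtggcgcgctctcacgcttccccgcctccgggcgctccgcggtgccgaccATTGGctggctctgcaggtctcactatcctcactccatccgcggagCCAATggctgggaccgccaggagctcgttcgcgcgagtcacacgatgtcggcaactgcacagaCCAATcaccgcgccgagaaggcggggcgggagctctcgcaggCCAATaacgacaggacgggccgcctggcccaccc
SREBF2: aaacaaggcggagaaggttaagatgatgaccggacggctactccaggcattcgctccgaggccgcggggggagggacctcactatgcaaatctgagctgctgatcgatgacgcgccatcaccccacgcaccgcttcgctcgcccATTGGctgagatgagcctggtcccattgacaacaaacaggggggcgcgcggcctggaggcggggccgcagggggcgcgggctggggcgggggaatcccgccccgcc
The boxes numbered 2 in HMGCS1, 0 in CYP51A1, 4 in MSMO1 and 1 in SREBF2, and none overlap. Of the 19 sterol enzymes measured, 17 had a window in the table and 14 of these (82.4%) held CCAAT or ATTGG in at least 1 window, against 37.0% of all genes in the table and 32.0% of all windows of this length. CYP51A1, LBR and PMVK held none. These are matches of letters, and binding was not measured.

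Of 17687 genes, 4 rose and 1 fell with Maraviroc IC20 against the 5 controls (limma, adjusted p under 0.05; 0.0283% of genes, 0.0226% higher and 0.00565% lower). Of the 4 that rose, 3 make sterols: HMGCS1, CYP51A1 and ACAT2. The other was SUN3, a SUN-domain protein of the nuclear envelope best known from the testis. The gene that fell was CST1, cystatin SN. At an unadjusted p under 0.05 there were 662 genes, 331 in each direction (1.87% each), where 884 would be counted if nothing differed. Both Maraviroc IC20 arrays lay above all 5 controls, with a difference of at least 2-fold, for 25 genes (0.141%), and below them for 16 (0.0905%). The median difference over all genes was -0.003 on the log2 scale.

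HMGCS1 makes HMG-CoA, the step before mevalonate. Its log2 level was 9.98 and 10.69 in the Maraviroc IC20 arrays, against 7.97 and 8.92 in ethanol, 8.09 and 7.97 in DMSO and 8.12 in the untreated array. Both Maraviroc arrays lay above all 5 controls, and the second ethanol array was the highest control. The difference from all controls was 2.12 ± 0.29 (SE), a 4.35-fold higher level (limma adjusted p = 0.0451).

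CYP51A1, the lanosterol demethylase, stood at 11.85 and 11.78 with Maraviroc IC20, against 9.36 and 10.29 in ethanol, 9.70 and 10.11 in DMSO and 9.44 untreated. The treated arrays were nearly equal while the controls spread over almost a log2 unit. The difference was 2.04 ± 0.26 (SE; limma adjusted p = 0.0378).

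ACAT2, the cytosolic thiolase that joins acetyl-CoA at the head of the pathway, was at 11.21 and 11.60 with Maraviroc IC20, against 10.08 and 9.68 in ethanol, 9.54 and 9.06 in DMSO and 9.47 untreated. Here the first ethanol array was the highest control. The difference was 1.84 ± 0.26 (SE; limma adjusted p = 0.0482).

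SUN3 was at 9.10 and 8.91 with Maraviroc IC20, against 7.01 and 7.56 in ethanol, 7.16 and 7.16 in DMSO and 7.02 untreated. It lay at least 1.36 above the highest control, and the difference was 1.82 ± 0.20 (SE; limma adjusted p = 0.0128).

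CST1 was at 4.11 and 4.84 with Maraviroc IC20, against 7.80 and 7.78 in ethanol, 6.75 and 7.52 in DMSO and 8.34 untreated. The treated values were near the negative controls, so the size of the fall rests on the floor of the array. The difference was -3.16 ± 0.35 (SE; limma adjusted p = 0.0128). CST1 and CST4 are near-identical relatives whose probes may not separate them.

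**Figure D1:**
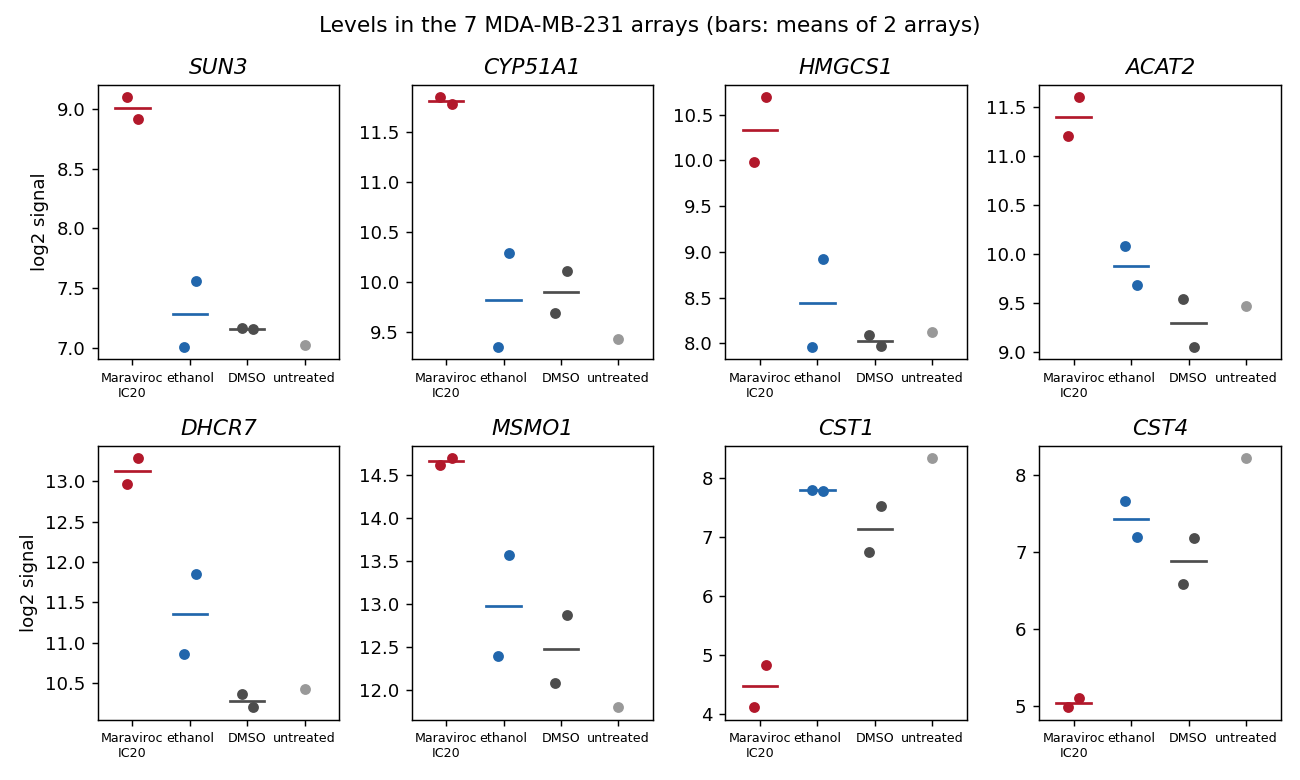
Log2 signal (y axis of each panel, scales differ and do not start at 0) of 8 genes in the 7 MDA-MB-231 arrays; points are arrays and bars the means of groups of 2. In each panel both Maraviroc IC20 arrays lie beyond all 5 controls, and the second ethanol array is the highest control for SUN3, CYP51A1, HMGCS1, DHCR7 and MSMO1.

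The calls, more than the sizes, changed with single arrays. Over all alternatives run, the difference stayed at 1.73 to 1.92 for SUN3, 1.93 to 2.16 for CYP51A1, 1.77 to 2.47 for HMGCS1, 1.64 to 2.04 for ACAT2 and -3.53 to -2.80 for CST1. With limma refitted without 1 array at a time, no gene passed without Maraviroc IC20 replicate 1 or 2 (the lone treated array being assumed to vary like the controls), ethanol replicate 1, DMSO replicate 2 or the untreated array, where 480 to 859 genes had an unadjusted p under 0.05. Without DMSO replicate 1, 3 genes passed (CST1, CST4 and SUN3), and without ethanol replicate 2, 16 passed, the 5 genes above among them.

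Against ethanol alone, limma on the 13 MDA-MB-231 arrays called 0 genes (0% of 17687), with 309 at an unadjusted p under 0.05 and a smallest adjusted p of 0.9996. The 5 genes kept their direction there. The difference from ethanol was 1.89 for HMGCS1 (95% confidence interval 1.13 to 2.65), 1.99 for CYP51A1 (0.89 to 3.09), 1.52 for ACAT2 (0.82 to 2.22), 1.72 for SUN3 (0.78 to 2.66) and -3.32 for CST1 (-4.70 to -1.93). None of these single-gene intervals, which are not adjusted for the number of genes, holds 0, and for each the limma adjusted p was 0.9996. So all 5 held against ethanol in direction and none in this test, whose adjusted p depended on the fit. CST1 passed when the 4 arrays were fitted alone (limma adjusted p = 0.0152). With array weights the limma adjusted p of the 5 lay between 0.142 and 0.418. Without the Maraviroc IC50 arrays it lay between 0.382 and 0.999 (limma). The 5 controls include both ethanol arrays, so the direction is not independent evidence. Against DMSO alone limma also called 0 genes (0%), with 772 at an unadjusted p under 0.05. That count depended on the fit: 22 genes passed with the 4 arrays alone, 7 with array weights, and DHCR7 by itself after centring, quantile normalization, the filter on dim genes or without the IC50 arrays.

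Among the 19 sterol enzymes, 3 rose and none fell by the test against all controls, and 16 lay above all 5 controls in both Maraviroc IC20 arrays, against 4.36% of all genes. Their median difference was 1.02 against all controls and -0.003 for all genes. Earlier results of these data were known when the list was chosen. The 3 enzymes that overlapped the controls were GGPS1, PMVK and TM7SF2. The size depended on the control: the median was 0.72 against ethanol, 1.38 against DMSO and 1.34 against the untreated array. The mean level of the 19 enzymes was 10.47 and 10.67 with Maraviroc IC20, against 9.41 and 9.88 in ethanol, 9.28 and 9.28 in DMSO and 9.28 untreated. The second ethanol array was above the first for 14 of the 19 and the highest control for 13 of them. What sets that array apart was not tested. For ethanol against DMSO the smallest adjusted p among the 19 was 0.511 (limma).

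In the early pathway, HMGCS1 and ACAT2 rose, and 7 of the 9 measured of 11 enzymes lay above all 5 controls (median 1.32, and 0.97 against ethanol). FDPS, which makes farnesyl diphosphate, was at 13.01 and 13.25 with Maraviroc IC20, against 12.25 and 12.07 in ethanol, 11.65 and 10.996 in DMSO and 11.70 untreated; the difference was 1.40 ± 0.29 (SE; limma adjusted p = 0.539). IDI1, the isopentenyl diphosphate isomerase, was 1.67 above all controls and 1.29 above ethanol, whose second array reached 11.49 beside treated values of 11.62 and 12.43. SQLE, the squalene epoxidase, was at 8.78 and 8.61, against 6.80 and 8.32 in ethanol, a difference of 1.14 from ethanol. MVD and MVK, which act on mevalonate or its phosphates, differed from all controls by 1.12 and 1.02, and from ethanol by 0.72 and 0.46. PMVK, the kinase between them, differed by 0.06. GGPS1, which makes the geranylgeranyl unit and is a branch off the sterol route, differed by -0.36 from all controls and by 0.30 from ethanol.

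In the late pathway, CYP51A1 rose, and 9 of the 10 measured of 11 enzymes lay above all 5 controls (median 0.94, and 0.71 against ethanol). DHCR7, which makes cholesterol from 7-dehydrocholesterol, was at 12.97 and 13.28 with Maraviroc IC20, against 10.86 and 11.86 in ethanol, 10.37 and 10.20 in DMSO and 10.43 untreated. It had the largest difference of the 17687 genes in the higher direction, 2.38 ± 0.37 (SE), yet its controls disagreed and it missed the threshold (limma adjusted p = 0.0871). MSMO1, the sterol C4-methyl oxidase, was at 14.62 and 14.69, against 12.39 and 13.57 in ethanol, 12.08 and 12.87 in DMSO and 11.80 untreated, a difference of 2.12 ± 0.38 (SE; limma adjusted p = 0.199). LSS (the lanosterol synthase), EBP, HSD17B7 and SC5D differed from all controls by 1.00, 0.94, 0.93 and 0.84. From ethanol they differed by 0.67, 0.70, 0.72 and 0.83. NSDHL, a partner of MSMO1 in removing the methyl groups, differed by 0.51. LBR, a nuclear envelope protein that also reduces sterols, cleared the highest control by 0.02. TM7SF2, the other sterol reductase of that step, was level with ethanol (-0.03).

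**Figure D2:**
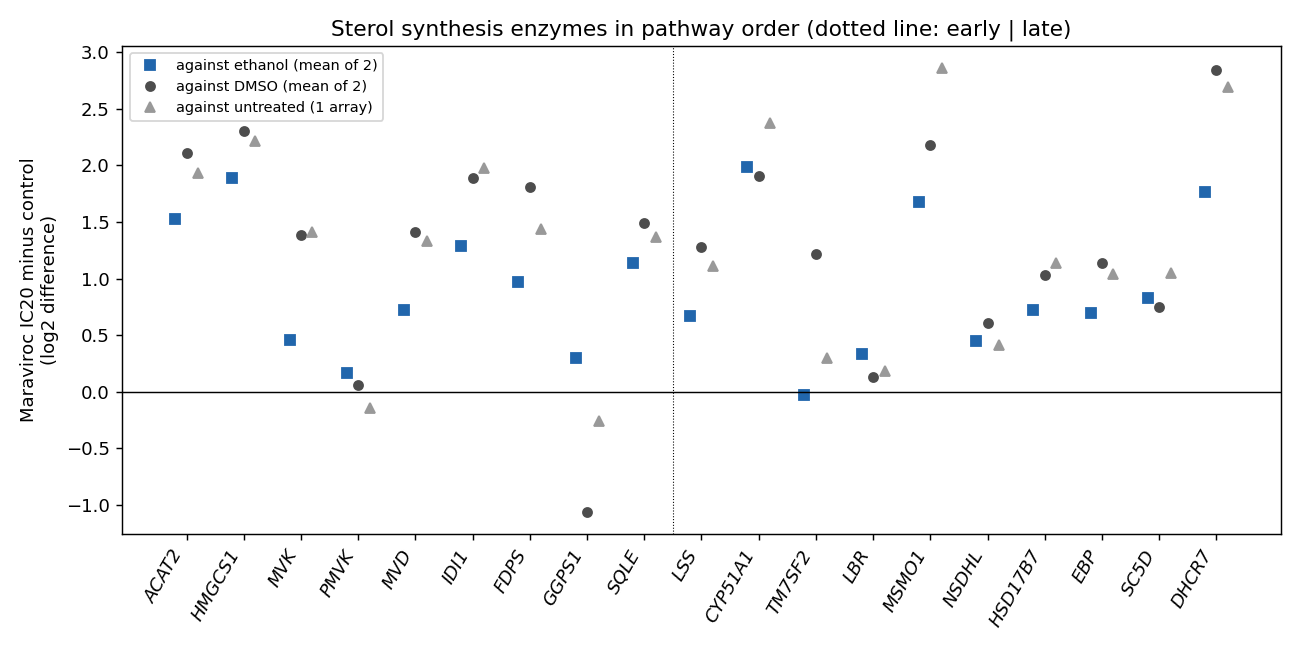
Log2 difference of Maraviroc IC20 (mean of 2 arrays) from ethanol, DMSO and the untreated array (y axis) for the 19 measured sterol enzymes in pathway order (x axis). All but TM7SF2 lie above 0 against ethanol, and for 15 of the 19 the difference from ethanol is smaller in size than that from DMSO.

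Of the regulators and uptake genes of this system, 10 of 15 were measured. None passed the test and 3 lay above all 5 controls, beside 4.36% of all genes (list median 0.65, and 0.40 against ethanol). INSIG1 was at 10.90 and 11.05 with Maraviroc IC20, against 9.00 and 10.38 in ethanol, 8.93 and 9.52 in DMSO and 8.70 untreated (difference 1.67 ± 0.37 SE, limma adjusted p = 0.66). SREBF2 was at 11.78 and 11.72, against 10.80 and 11.26 in ethanol, 10.27 and 10.48 in DMSO and 10.38 untreated, a difference of 1.11. TMEM97, which binds the sterol carrier NPC1, was the third, at 0.67. NPC1, which moves cholesterol out of lysosomes, differed by 1.17, but its treated arrays stood at 12.97 and 11.99 and the second overlapped DMSO replicate 2 (12.06). STARD4, a sterol transfer protein, and SCARB1, a lipoprotein receptor, differed by 0.90 and 0.64 and overlapped the controls. SREBF1, the factor for fatty acid genes, differed by -0.42. SCAP, INSIG2 and the SREBP-cutting protease MBTPS1 differed by 0.21, 0.30 and 0.07.

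Of 10 targets of LXR, the sterol-sensing receptor behind efflux, 8 were measured; none passed and ABCG1 and APOE lay below all 5 controls (3.91% of all genes did). ABCG1, a sterol exporter, was at 9.34 and 9.11 with Maraviroc IC20, against 10.30 and 9.55 in ethanol, 10.90 and 10.82 in DMSO and 11.09 untreated. It differed by -1.31 from all controls and by -0.70 from ethanol. APOE, a lipoprotein component, differed by -0.32 from all controls and by -0.21 from ethanol. ABCA1, the other main exporter, lay above both ethanol arrays and near or below the other controls. It was at 7.37 and 7.55 with Maraviroc IC20, against 5.72 and 6.33 in ethanol but 7.82 and 7.83 in DMSO and 7.54 untreated. Its difference was 1.44 from ethanol and 0.41 from all controls. LPCAT3, SMPDL3A, ABCG4 and NR1H3, the last being LXR alpha itself, differed by 0.51, -0.33, 0.12 and -0.03 from all controls, and SREBF1, given above, is the eighth member.

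Of 17 fatty acid genes 14 were measured, and 4 lay above all 5 controls (4.36% of all genes did), none past the test (median 0.35, and 0.36 against ethanol). FASN, the fatty acid synthase, was at 13.34 and 14.04 with Maraviroc IC20, against 12.32 and 12.59 in ethanol, 12.04 and 12.11 in DMSO and 12.37 untreated (difference 1.41 ± 0.23 SE, limma adjusted p = 0.125). SCD, a desaturase, and ACLY, which supplies cytosolic acetyl-CoA, differed by 1.04 and 0.67 from all controls and by 0.69 and 0.39 from ethanol. FADS2, another desaturase, differed by 1.00 and overlapped the controls.

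Outside lipid synthesis, 4 further genes completed the 12 higher ones. SLC37A2, a sugar phosphate exchanger, was at 11.53 and 11.51 with Maraviroc IC20, against 9.99 and 10.55 in ethanol, 9.93 and 10.25 in DMSO and 9.88 untreated (difference 1.40 ± 0.22 SE, limma adjusted p = 0.0871; 1.25 from ethanol). MOXD1, a relative of dopamine beta-hydroxylase, was at 8.74 and 8.33, with the 5 controls between 7.33 and 7.44, the tightest of the 24 genes. It differed by 1.14 from all controls and by 1.16 from ethanol. ATP9A, a flippase of endosomes, differed by 1.17 from all controls and by 1.00 from ethanol. SQSTM1, the autophagy receptor p62, was at 14.75 and 14.56, against 13.50 and 13.83 in ethanol, 13.74 and 13.84 in DMSO and 13.48 untreated. It differed by 0.98 from all controls and by 0.99 from ethanol.

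Of the 9 cystatins measured, CST1 fell, and CST1 and CST4 lay below all 5 controls (3.91% of all genes did). The list median was -0.18 against all controls and -0.33 against ethanol; against all controls it was 0.13 without Maraviroc IC20 replicate 1 and -0.54 without replicate 2. CST4, cystatin S, was at 4.99 and 5.11 with Maraviroc IC20, against 7.67 and 7.20 in ethanol, 6.59 and 7.18 in DMSO and 8.22 untreated. It differed by -2.32 ± 0.34 (SE; limma adjusted p = 0.0692) from all controls and by -2.38 from ethanol, and its treated values were near the negative controls too. CST2, of the same salivary subgroup, was at 7.59 and 7.95 and overlapped DMSO replicate 2 (7.80), with a difference of -0.90. CST3, the abundant cystatin C, and CSTB, a cytosolic one, differed by -0.18 and 0.32. CST7 differed by 0.72 from all controls and by 1.31 from ethanol. CST6 was 0.37 higher and above all 5 controls (4.36% of all genes were) but near the negative controls. CST5 and CSTA differed by -0.21 and -0.07.

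The other 10 of the 12 lower genes did not pass the test. SNAI2 (Slug), a transcription factor of mesenchymal state, was at 6.38 and 6.62 with Maraviroc IC20, against 7.41 and 7.50 in ethanol, 7.40 and 7.91 in DMSO and 7.55 untreated (difference -1.06 ± 0.20 SE, limma adjusted p = 0.278; -0.96 from ethanol). EFNB2, the ligand ephrin-B2, was at 8.62 and 8.53, against 9.48 and 9.83 in ethanol, and differed by -1.06 from all controls and -1.08 from ethanol. CYP3A5, an oxidase of drugs, was at 4.27 and 5.10, near the negative controls, against 6.52 and 6.05 in ethanol. It differed by -1.49 from all controls and by -1.60 from ethanol. SHISA2, an endoplasmic reticulum protein, differed by -1.03 from all controls and by -0.85 from ethanol. CCDC15 and the centrosomal CEP126 differed by -1.16 and -0.90 from all controls and by -0.89 and -0.70 from ethanol, with treated values near the negative controls. MTERF3, of mitochondrial gene expression, differed by -0.80 from both. For CALB2 (calretinin), DTL, which marks CDT1 for degradation, and MANEA, a Golgi mannosidase, the differences were -1.13, -0.89 and -0.82 from all controls and -0.93, -0.73 and -0.80 from ethanol, and the ethanol single-gene intervals held 0.

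Thus of the 24 genes named by rule, all 24 lay beyond both ethanol arrays, as the rule required, 21 had a single-gene 95% interval against ethanol that excluded 0, and 0 passed the adjusted test (limma, all at 0.9996). Since the genes were chosen on the same arrays, these intervals restate the choice and are no separate support. For 9 of the 12 higher and 8 of the 12 lower genes the difference from ethanol was smaller in size than that from DMSO, as it was for 10027 of all 17687 genes. The median of the 12 higher genes was 1.61 against all controls, 1.39 against ethanol and 1.83 against DMSO.

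**Figure D3:**
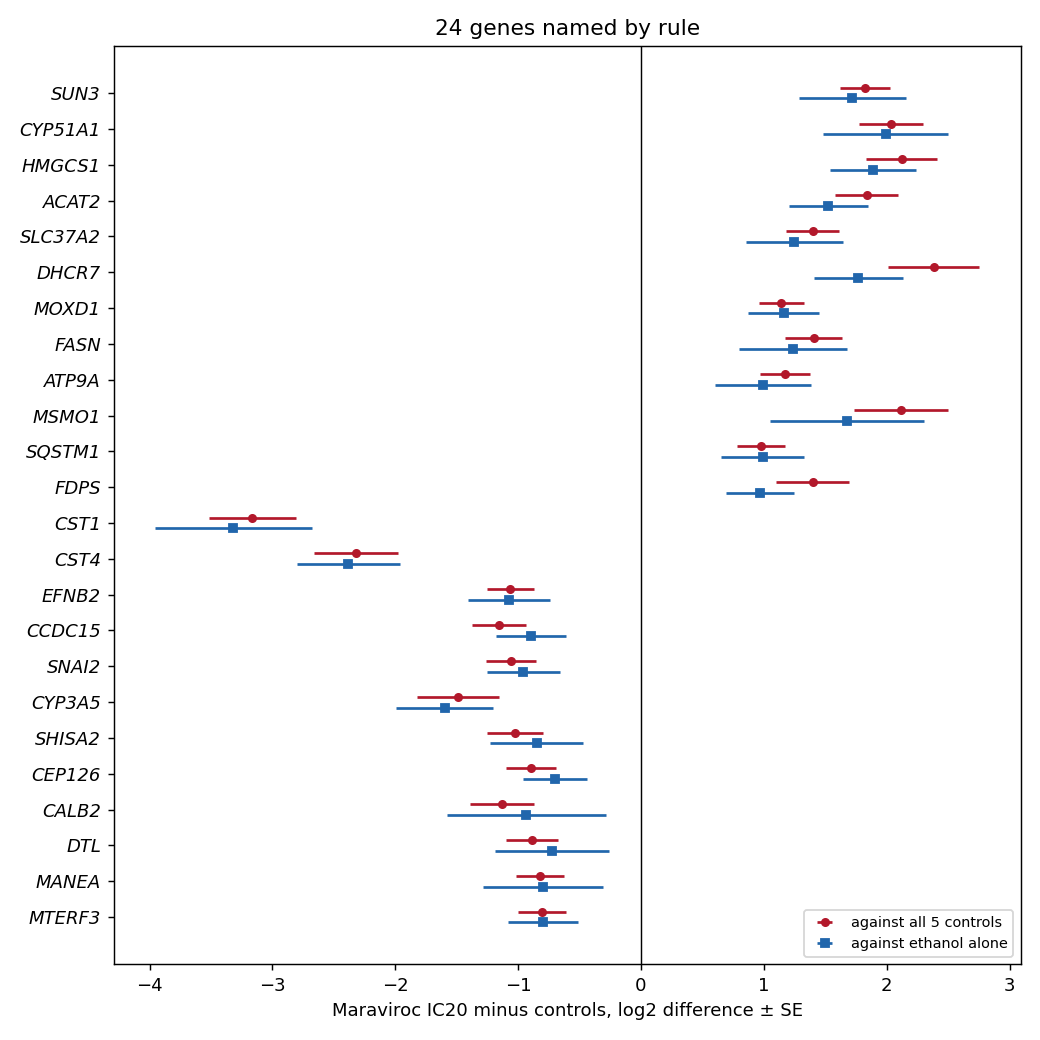
Log2 difference (x axis, ± SE) of Maraviroc IC20 from all 5 controls (circles) and from ethanol alone (squares) for the 24 genes named by rule, higher genes above lower ones. Every square lies on the same side of 0 as its circle, with wider bars for all genes but DHCR7 and FDPS, and the squares of DHCR7, MSMO1 and FDPS lie furthest inside their circles.

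Chemokine receptors gave little signal. Of 23 chemokine receptors 21 were measured, and 4 had a group mean above the 75th percentile of the negative controls (CCRL2, CCR2, XCR1 and ACKR2). None passed the test (median 0.11, and 0.03 against ethanol). CCRL2, a non-signalling receptor and the brightest, was at 8.51 and 8.71 with Maraviroc IC20, against 8.27 and 8.76 in ethanol, 8.62 and 8.59 in DMSO and 8.11 untreated, so the groups overlapped. CXCR6, ACKR3 and CX3CR1 lay above all 5 controls (4.36% of all genes did). Their differences were 0.74, 0.55 and 0.27, and all were near the negative controls. The remaining 17 overlapped the controls. CCR10 and CXCR5 differed by 0.54 and 0.33, and CCR6, ACKR4, CCR7, CXCR2 and CCR8 by 0.11 to 0.17. CCR2, XCR1 and ACKR2 differed by 0.02, 0.02 and 0.002. ACKR1, CXCR1, CCR1, CCR4, CCR9, CXCR3 and CXCR4 lay between -0.09 and -0.24.

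Of the other lists, DNA replication and G1/S genes had the lowest median. Of 41 genes 40 were measured, none passed the test, 5 lay below all 5 controls (3.91% of all genes did) and none above (median -0.26, and -0.28 against ethanol). The median was -0.39 in Maraviroc IC20 replicate 1 and -0.11 in replicate 2, and the mean level of the list was 9.61 and 9.94, with the controls at 9.85 to 10.17, so the second treated array lay within the control range. DTL, CDT1, a licensing factor, and the helicase subunits MCM3 and MCM4 were among the 5, at -0.89, -0.77, -0.49 and -0.45. The 32 mitosis genes had none beyond all 5 controls in either direction and a median of 0.06. That median was 0.25 without Maraviroc IC20 replicate 1 and -0.11 without replicate 2, so the treated arrays differed in sign. It was -0.04 without DMSO replicate 2 and -0.007 without ethanol replicate 2. The NRF2 list had 23 members measured and 5 lay above all 5 controls (4.36% of all genes did), with SQSTM1, TXNRD1 (thioredoxin reductase), TKT (transketolase) and FTL (ferritin light chain) at 0.98, 0.57, 0.70 and 0.55, and the list median was 0.19. AKR1C1, an aldo-keto reductase of that list, differed by -0.86 and overlapped the controls. Of 28 lysosomal genes 4 lay above them, beside the same 4.36% of all genes, led by the protease CTSD at 1.31 (1.03 against ethanol), and the list median was 0.18 against all controls and 0.02 against ethanol. Of 30 transition and invasion genes 4 lay below all 5 controls, beside 3.91% of all genes, with SNAI2, FN1 (fibronectin) and SNAI1 at -1.06, -1.15 and -0.56, and the list median was -0.02, with 0.009 after centring each array, 0.001 without Maraviroc IC20 replicate 1 and 0.006 without ethanol replicate 2. The 29 ATF4 amino acid genes had none beyond the controls, and their median was 0.11 against all controls and 0.42 against ethanol. Against all controls it was 0.49 in Maraviroc IC20 replicate 1 and -0.31 in replicate 2, so the treated arrays disagreed on this list. The ethanol arrays disagreed too, with mean levels of 11.65 and 10.37, beside 11.94 and 11.03 with Maraviroc IC20.

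**Figure D4:**
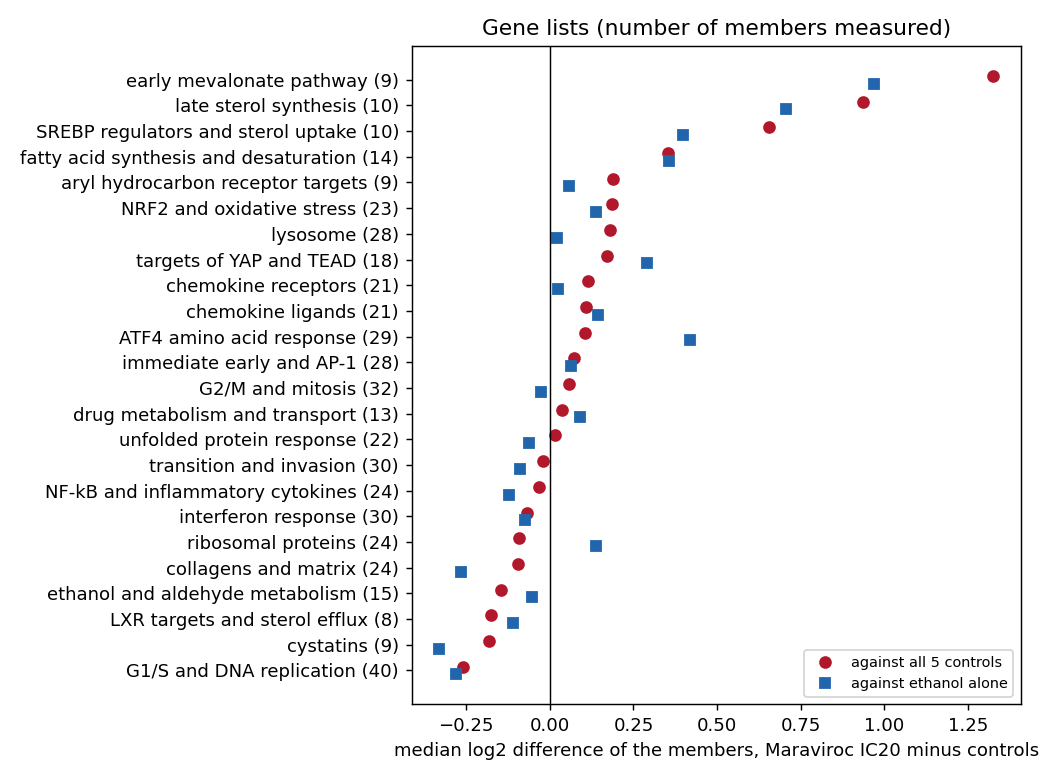
Median log2 difference of Maraviroc IC20 from all 5 controls (circles) and from ethanol alone (squares) on the x axis for 24 gene lists, with the number of members measured in brackets. The 3 sterol lists lie highest, at 1.32, 0.94 and 0.65 against all controls, and each moves toward 0 against ethanol.

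The higher dose of the same drug, Maraviroc IC50, gives these genes a dose series. HMGCS1 was at 7.97 and 8.92 in ethanol, 9.98 and 10.69 at IC20 and 10.43 and 10.99 at IC50, and DHCR7 at 10.86 and 11.86 in ethanol, 12.97 and 13.28 at IC20 and 13.41 and 12.73 at IC50. For both, the 2 doses overlapped, and IC50 exceeded ethanol by 2.27 for HMGCS1 (limma adjusted p = 0.000455) and by 1.71 for DHCR7 (limma adjusted p = 0.00354). Others were high at IC20 but not at IC50. CYP51A1 was at 9.36 and 10.29 in ethanol, 11.85 and 11.78 at IC20 and 8.58 and 10.50 at IC50, so IC50 minus IC20 was -2.28 (limma adjusted p = 0.00527). ACAT2 was at 10.08 and 9.68 in ethanol, 11.21 and 11.60 at IC20 and 8.18 and 8.86 at IC50, a difference of -2.89 between the doses (limma adjusted p = 4.78e-05), and below ethanol at IC50 by a difference of -1.36. For SUN3, IC50 minus IC20 was -1.77 (limma adjusted p = 0.00929). CST1 stayed low, at 4.11 and 4.84 at IC20 and 4.20 and 3.33 at IC50. Between the doses 26.7% of all genes passed, and these tests share the IC20 arrays by which the genes were chosen.

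At IC50 the arrays themselves stood apart. Their median log2 signal was 6.84 and 6.90, against 7.01 and 7.07 in ethanol, their interquartile range 4.07 and 4.05, against 4.37 and 4.56, and their negative control median 5.16 and 5.08, against 4.75 and 4.62. The MDA-MB-231 marker list averaged 11.31 and 10.80 at IC50, against 12.99 and 13.03 in ethanol, with 9 of 12 members called lower. The part of these shifts in the IC50 values was not tested. Of the 19 sterol enzymes, 6 rose against ethanol (HMGCS1, MVK, DHCR7, LSS, HSD17B7 and SC5D; 12% of all genes rose) and 2 fell (ACAT2 and GGPS1; 15% of all genes fell), with a median of -0.004 beside 0.11 for all genes. Over all genes, 4778 passed at IC50 against ethanol, and the replicates there varied more (SD 0.546, against 0.277 at IC20). DTL and MANEA, at -0.73 and -0.80 from ethanol at IC20, were at -4.83 and -4.69 at IC50, and SQSTM1, at 0.99, was at 3.85. The mitosis list, with a median of -0.03 against ethanol at IC20, had one of -4.55 at IC50, and the G1/S list -0.28 at IC20 and -3.19 at IC50.

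**Figure D5:**
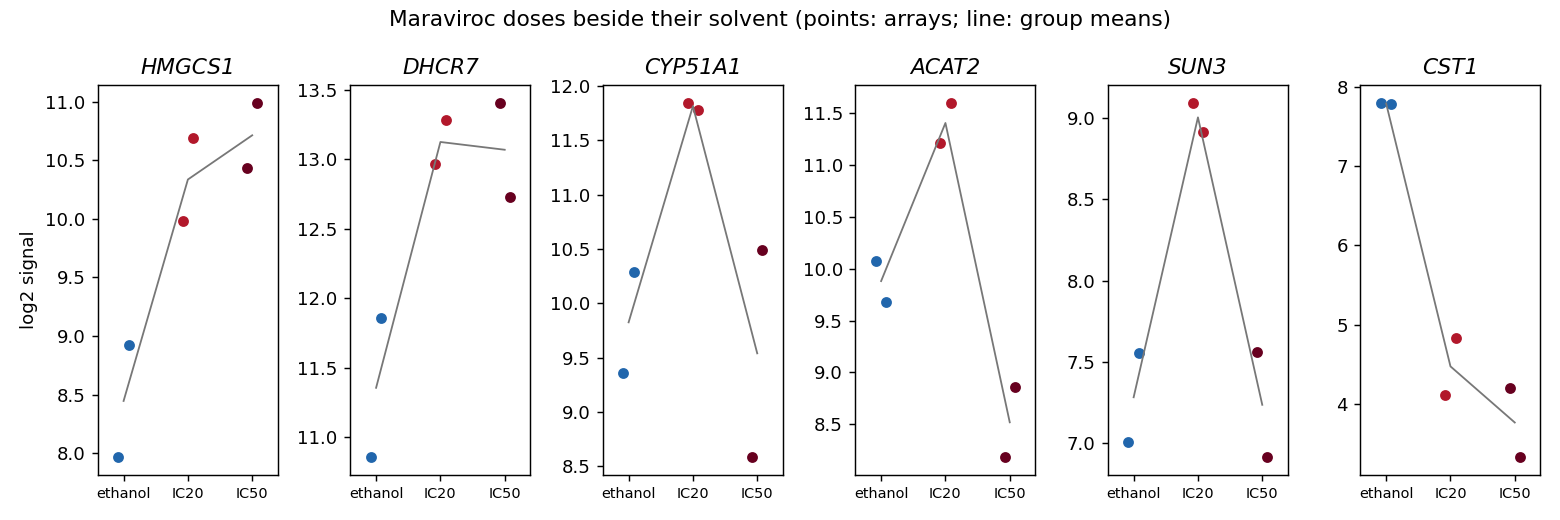
Log2 signal (y axis, scales differ and do not start at 0) of 6 genes in ethanol, Maraviroc IC20 and Maraviroc IC50 (x axis, 2 arrays each); lines join group means. HMGCS1 and DHCR7 are high at both doses, CYP51A1, ACAT2 and SUN3 at IC20 but not at IC50, and CST1 is low at both.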

How the data were processed

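Each array gave log2 signals, deposited by the authors, for 24351 probe sets, with 5.5 ug of RNA labelled per array, per the labels' protocols. Their summarisation and normalization are not stated in the labels, and nothing was changed in them for the main fit. Precision is limited by the number of arrays. Of the probe sets, 2903 were controls, 3739 had no gene listed and 17709 had 1 gene symbol, each matched to RefSeq by Entrez identifier. Where a gene had more than 1 probe set (20 genes), the brightest by mean was kept, leaving 17687 genes. The build behind the array is not stated in the labels. "Near the negative controls" means a group mean under 6.05, the 75th percentile of 612 such probe sets.

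limma 3.58.1 (R 4.3.3; lmFit, eBayes, 2-sided, Benjamini-Hochberg over all genes, adjusted p under 0.05) compared the 2 Maraviroc IC20 arrays with the 5 controls as 1 group (5 residual degrees of freedom). The other contrasts came from 1 fit of the 13 MDA-MB-231 arrays in 7 groups (6 residual degrees of freedom). The ± values are limma's standard errors. The genes named in each direction were the 12 with the smallest p among those with both Maraviroc IC20 arrays beyond all 5 controls and the higher mean above the negative control percentile. Beside them stand all genes past the threshold, all members of 6 lists (mevalonate, late sterol, SREBP regulators, LXR targets, cystatins, chemokine receptors) and up to 4 members of each other list. TKT and MCM4 were named after their values were seen. The members and lists were chosen with earlier results of these data known.

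On simulated data (20 runs, 200 planted genes, 17687 genes), the comparison with the 5 controls recovered 43.5% of the planted log2 differences of 1, 90.3% of those of 2 and 98.3% of those of 3, with 4.24% false calls. The comparison with ethanol recovered 15.8%, 78% and 95.9%, with 4.5% false calls. The simulated arrays were independent, so these rates may not hold for the data.

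Alternatives were centring or quantile normalization, a filter on dim genes, other sets of arrays, array weights, a trended and robust prior, separate control groups, a replicate block, the mean over probe sets and leaving out each array.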

Additional observations from a re-analysis of the deposited data

Results flagged for a closer look

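In 4 of the 24 named genes, 1 control array lay far from the other 4 (Dixon's gap test at the 95% level, which chance passes in about 1 of 20 groups). SUN3 was at 7.56 in ethanol replicate 2, with the other controls at 7.01 to 7.16. HMGCS1 was at 8.92 in the same array, with the others at 7.97 to 8.12. SNAI2 was at 7.91 in DMSO replicate 2, with the others at 7.40 to 7.55, and CALB2 at 9.02 there, with the others at 8.07 to 8.34. In each higher gene the far array lay toward the Maraviroc IC20 arrays, and in each lower gene away from them.

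In 10 of the 24, the effect differed between the doses of Maraviroc, by the limma contrast of IC50 minus IC20 in the 13-array fit, in which 26.7% of all genes passed. The difference was -1.77 for SUN3 (adjusted p = 0.00929), -2.28 for CYP51A1 (adjusted p = 0.00527), -2.89 for ACAT2 (adjusted p = 4.78e-05), -1.94 for MOXD1 (adjusted p = 0.000371), -1.95 for MSMO1 (adjusted p = 0.0365) and -0.87 for FDPS (adjusted p = 0.034). These 6 were high at IC20. Among the lower genes it was -1.12 for SNAI2 (adjusted p = 0.0135), -4.11 for DTL (adjusted p = 5.12e-05) and -3.89 for MANEA (adjusted p = 0.00011), and SQSTM1 gave 2.86 (adjusted p = 6.66e-05), so these 4 lay further out at IC50.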

How the results depend on the processing

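Against the 5 controls, 5 genes passed. The count was 4 or 5 under median centring, quantile normalization, the filter on dim genes, the trended and robust prior, the mean over probe sets and the fit without the Maraviroc IC50 arrays. In that last fit the 4 were HMGCS1, CYP51A1, ACAT2 and DHCR7, without SUN3 (adjusted p = 0.132, limma) and CST1 (adjusted p = 0.0822). It was 1 in the fit of all 13 arrays (HMGCS1), 12 with array weights and 9 with separate control groups, each of these last 2 sets holding the 5. With 1 array left out it ranged between 0 and 16, as given array by array in the report. Against ethanol alone 0 genes passed, with 1 (CST1) when the 4 arrays were fitted alone and 0 with 1 array left out (170 to 460 at an unadjusted p under 0.05, limma). Against DMSO alone 0 passed. Alternatives chosen there after seeing the data gave 22 with the 4 arrays alone and 7 with array weights. They gave 1 without the Maraviroc IC50 arrays, 1 with median centring, 1 with quantile normalization and 1 with the filter. With 1 array left out that count was 0 (295 to 784 at an unadjusted p under 0.05, limma).

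Groups share replicate numbers, but the labels do not say that the numbers pair the arrays. Deviations of same-numbered arrays correlated weakly, at 0.25, between Maraviroc IC20 and ethanol. With DMSO there was no such correlation, at -0.01 for Maraviroc IC20 and -0.08 for ethanol. A value near 0 shows no shared deviation but cannot tell whether the arrays were paired. With a replicate block, 4 genes passed against the 5 controls, 8 against ethanol (CST1, CST4, HMGCS1, CYP51A1, DHCR7, MSMP, ANKRD1 and LPCAT1) and 227 against DMSO. None of the 24 named genes changed sign under any alternative run. Against the 5 controls, 354 results kept their side of the threshold, 17 gained it and 36 lost it. Against ethanol 254 kept it and 6 gained it. The cause of these changes was not tested. With 2 treated arrays, genes near the negative controls (CST1, CST4, CYP3A5, CCDC15 and CEP126) have differences limited by the floor.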
